A study of Mus musculus with 22 samples.

Results

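Imprinted growth regulators on chromosomes other than 17 were examined in liver and in sorted spermatogenic cells of male mice that carry extra chromosome 17 material. The 10 genes, taken from a fixed list of names, were Igf2, Grb10, Peg3, Mest, Dlk1, Meg3, Cdkn1c, Plagl1, Peg10 and Zim1. Each had 1 probe set among the 15780 named genes of the array. Ts43H males, which are trisomic for the centromeric part of chromosome 17, were set against euploid t121/D17 siblings. All males were 2 months old. Liver, pre-mid-pachytene spermatocytes and spermatids were each measured on 3 arrays per genotype and mid-late-pachytene spermatocytes on 2, which makes 22 arrays, and flow cytometry had sorted the germ cells from dissociated testicular tubules. Nothing in the labels ties an array to its own animal, so p-values measure only the spread between these arrays, which may be technical. Values are GCRMA intensities on the log2 scale, and values below 3 are called the background range.

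Genomic imprinting leaves 1 parental copy of a gene silent, through DNA methylation set differently in oocytes and sperm. Many imprinted genes act on growth of the fetus and placenta, where paternally expressed genes tend to promote it and maternally expressed genes to restrain it, and many of them are switched off in most tissues after birth. Igf2 encodes a fetal growth factor, Grb10 an adaptor that dampens insulin and IGF receptor signalling, and Cdkn1c an inhibitor of cyclin-dependent kinases. Peg3 and Zim1 encode zinc finger proteins of 1 imprinted cluster, Plagl1 is a zinc finger transcription factor, Mest an alpha/beta hydrolase-fold protein, Dlk1 a transmembrane protein related to Notch ligands, Meg3 a long non-coding RNA expressed from the maternal copy beside Dlk1, and Peg10 a retrotransposon-derived gene needed in the placenta.

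The imprints of Grb10, Peg3 and Mest are set in the oocyte as methylation of CpG-rich DNA near a start site, and the starts of these genes are shown because they belong to members that were measured above the background range here in different cell types. RefSeq start windows of 300 bases (250 before and 50 after the start, mouse assembly GRCm38.p6) matched 8 of the 10 members with 15 windows, and Cdkn1c and Peg10 had none. In the lines below, capitals mark CpG dinucleotides and each sequence runs 5′ to 3′.
Grb10, first start, chr11:12037371-12037670, minus strand: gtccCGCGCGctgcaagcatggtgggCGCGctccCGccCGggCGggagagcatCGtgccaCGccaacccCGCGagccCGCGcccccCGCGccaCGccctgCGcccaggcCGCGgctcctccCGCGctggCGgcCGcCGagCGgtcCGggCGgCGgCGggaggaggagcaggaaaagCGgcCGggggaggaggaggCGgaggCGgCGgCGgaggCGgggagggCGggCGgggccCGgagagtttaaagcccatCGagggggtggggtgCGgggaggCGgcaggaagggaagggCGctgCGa
Grb10, second start, chr11:12027922-12028221, minus strand: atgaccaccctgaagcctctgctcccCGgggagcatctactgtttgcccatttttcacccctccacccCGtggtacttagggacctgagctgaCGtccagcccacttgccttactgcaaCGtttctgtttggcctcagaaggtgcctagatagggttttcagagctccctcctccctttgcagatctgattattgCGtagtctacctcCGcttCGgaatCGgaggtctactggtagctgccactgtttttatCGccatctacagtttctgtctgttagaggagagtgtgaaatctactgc
Peg3, chr7:6730370-6730669, minus strand: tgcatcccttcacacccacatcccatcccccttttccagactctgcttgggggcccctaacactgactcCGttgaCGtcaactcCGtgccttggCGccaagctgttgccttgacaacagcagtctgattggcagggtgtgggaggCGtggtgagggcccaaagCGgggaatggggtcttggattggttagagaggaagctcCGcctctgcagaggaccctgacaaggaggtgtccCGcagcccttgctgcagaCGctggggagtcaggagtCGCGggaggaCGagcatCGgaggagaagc
Mest, second start, chr6:30737800-30738099, plus strand: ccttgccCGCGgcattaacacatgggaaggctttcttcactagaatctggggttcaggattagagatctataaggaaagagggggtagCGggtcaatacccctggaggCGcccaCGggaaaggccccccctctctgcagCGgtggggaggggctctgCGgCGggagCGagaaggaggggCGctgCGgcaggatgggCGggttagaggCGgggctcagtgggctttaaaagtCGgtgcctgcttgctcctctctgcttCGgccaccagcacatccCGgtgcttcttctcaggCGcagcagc
The first Grb10 window held 45 CpG and a GC content of 80.0%, and 1.93% of all 32851 windows held as many CpG. The second Grb10 window held 9 CpG. Peg3 had 13 CpG and the second Mest window 17. The member windows had a median of 13 CpG, from 1 at the second Meg3 start to 45 at the first Grb10 start, and the median over all windows was 7. No methylation was measured in these samples, so these counts describe sequence only. They do not say which of the windows, if any, covers the DNA that carries the imprint.

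As a check of the labels, the median of 10 hepatocyte markers was 15.90 to 16.05 on all liver arrays and at most 2.48 on all germ cell arrays. Pachytene spermatocyte markers had a median of 10.83 to 11.51 in pre-mid-pachytene cells, 13.93 to 13.99 in mid-late-pachytene cells and 13.72 to 14.06 in spermatids, so they were not highest in 1 sorted stage alone. Spermatogonia markers had a median of 5.40 to 7.20 in the pre-mid-pachytene arrays and at most 2.89 in the later stages. Arrays of a group correlated with r of 0.988 to 0.997 across genes, which are not independent replicates.

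Of the 10 members, Grb10 and Cdkn1c were above the background range on all 22 arrays, Peg3 on 12, Meg3 on 6, and Igf2 and Mest on 2 arrays each. Dlk1, Plagl1, Peg10 and Zim1 stayed in the background range on every array. For comparison, 20.7% of all named genes were below 3 on every array. Levels of different genes are not set against each other here, because probe sets differ in how strongly they bind.

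**Figure D1:**
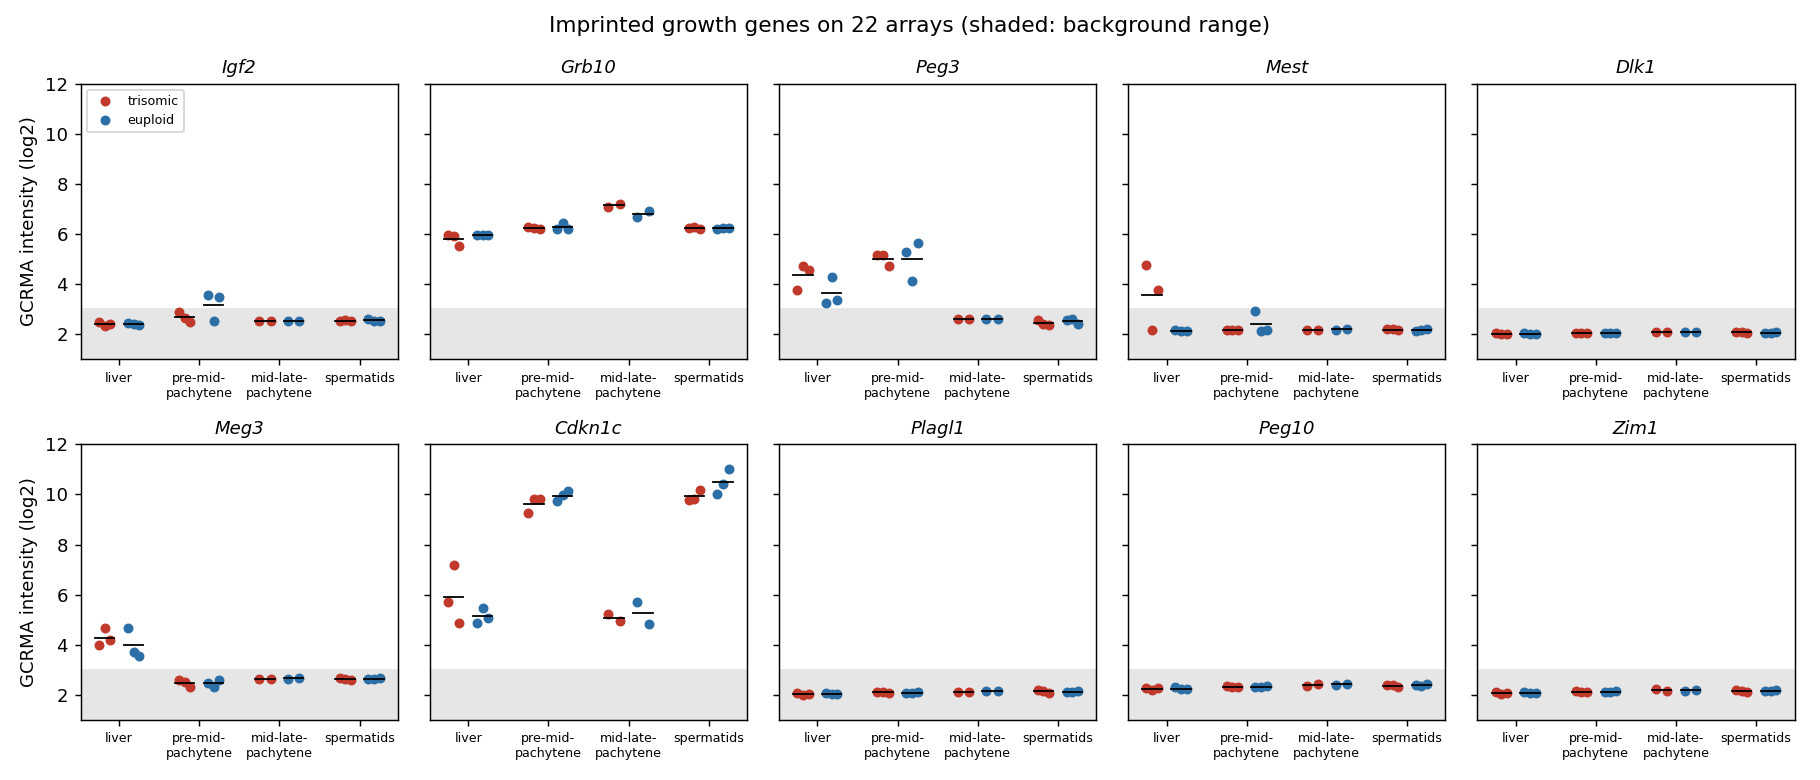
Each point is 1 array, with the GCRMA intensity (log2) of a gene on the vertical axis and cell type on the horizontal axis, trisomic in red at the left and euploid in blue at the right of each pair. Bars are group means and the shaded area is the background range below 3. Cdkn1c separates pre-mid-pachytene spermatocytes and spermatids from liver and mid-late-pachytene spermatocytes, and 4 genes lie in the shaded area throughout.

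Cdkn1c, the kinase inhibitor that holds cells out of the cell cycle, varied most among the members, with a range of 6.21 log2 units over the arrays. In euploid liver it had 4.85, 5.48 and 5.07. Among euploid germ cells, pre-mid-pachytene spermatocytes had 9.72, 9.97 and 10.15, mid-late-pachytene cells 5.71 and 4.82, and spermatids 10.02, 10.44 and 11.02. All spermatid and pre-mid-pachytene arrays thus lay above all mid-late-pachytene and liver arrays. Cdkn1c was 37.5-fold higher in spermatids than in mid-late-pachytene cells (log2 difference 5.23, SE 0.46, adjusted p = 1.6e-08, limma), where 29.7% of tested genes were higher. It was 25.7-fold higher in pre-mid-pachytene than in mid-late-pachytene cells (4.68, SE 0.459, adjusted p = 2.5e-08, limma), where 36.3% were higher. In bulk samples fewer cells of a type and less RNA per cell cannot be told apart, and this holds for every such difference between samples below. Cdkn1c in euploid liver was below spermatids, with a difference of -5.36 (SE 0.415, adjusted p = 4.9e-10), where 47.2% were lower, and below pre-mid-pachytene cells, with -4.82 (SE 0.415, adjusted p = 3.0e-09). The levels in spermatids and pre-mid-pachytene cells did not pass the test (difference 0.55, SE 0.411, adjusted p = 0.221, where 84.7% of tested genes passed in either direction), nor did those in liver and mid-late-pachytene cells (-0.13, SE 0.463, adjusted p = 0.790, where 88.6% passed).

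Markers of elongating spermatids, such as protamines, moved in the same direction as Cdkn1c among the germ cells. Their median over 9 genes, all on the array, was 13.75 to 14.72 on trisomic and 13.86 to 14.49 on euploid pre-mid-pachytene arrays. In mid-late-pachytene cells it was 10.61 to 10.87 on trisomic and 10.16 to 11.95 on euploid arrays, and in spermatids 14.45 to 14.90 on trisomic and 14.76 to 15.07 on euploid arrays. The summed level of the list ran from 125 to 132 on trisomic and from 127 to 130 on euploid pre-mid-pachytene arrays, and from 90.4 to 92.4 on trisomic and 88.3 to 101 on euploid mid-late-pachytene arrays. The samples labelled pre-mid-pachytene thus held high levels of these late spermatid transcripts. In liver the median was 2.21 to 2.78 while Cdkn1c was near its mid-late-pachytene level. Round spermatid markers did not share this pattern. Their median was 9.43 to 9.81 on trisomic and 9.60 to 10.90 on euploid pre-mid-pachytene arrays. In mid-late-pachytene cells it was 9.86 to 9.89 on trisomic and 9.24 to 11.03 on euploid arrays. In spermatids it was 13.27 to 13.90 on trisomic and 13.46 to 13.80 on euploid arrays. The part of either list in the Cdkn1c pattern was not tested.

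**Figure D2:**
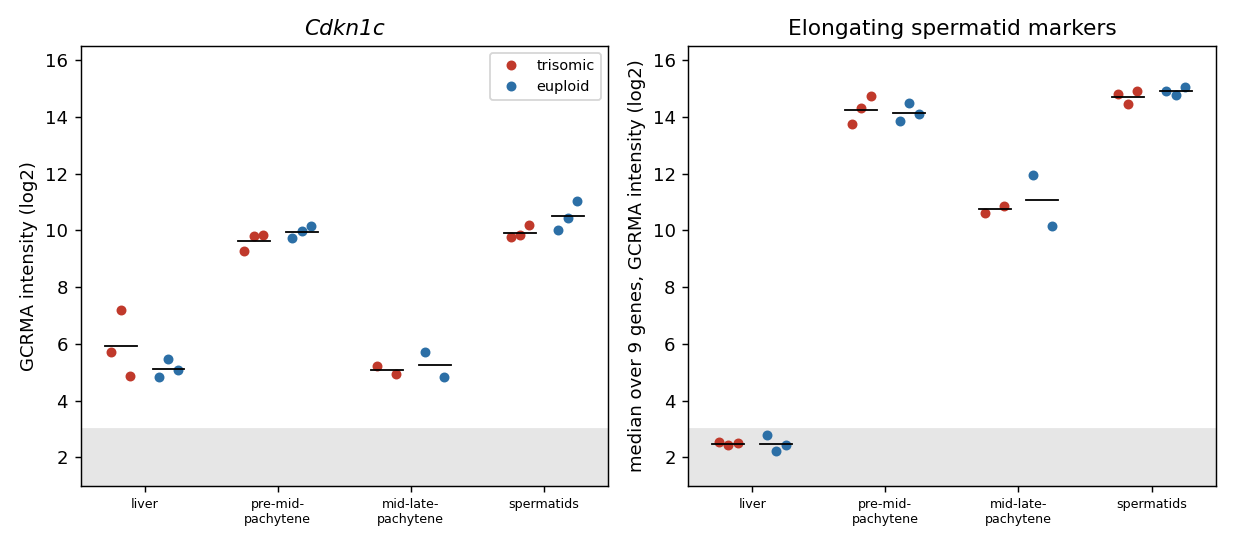
Points are arrays, trisomic in red at the left and euploid in blue at the right of each pair, with group means as bars; the left panel plots Cdkn1c and the right panel the median of 9 elongating spermatid markers, both as GCRMA intensity (log2). Both are lower in mid-late-pachytene cells than in the other germ cells, and the marker median in liver is between 2.21 and 2.78.

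Grb10, the adaptor that restrains insulin and IGF signalling, had a narrow range of 1.71 log2 units over all arrays. Euploid liver had 5.96, 5.94 and 5.95, euploid pre-mid-pachytene cells 6.19, 6.44 and 6.20, euploid mid-late-pachytene cells 6.68 and 6.92, and euploid spermatids 6.19, 6.24 and 6.23. Both mid-late-pachytene arrays lay above all other euploid arrays, and all liver arrays lay below all others. The 3 differences with mid-late-pachytene cells passed the test: the difference was -0.85 for liver (SE 0.143, adjusted p = 2.1e-05, limma), -0.52 for pre-mid-pachytene cells (SE 0.152, adjusted p = 0.00440) and -0.58 for spermatids (SE 0.152, adjusted p = 0.00268). In these comparisons 46.9%, 42.3% and 34.8% of tested genes were lower. Without the second euploid mid-late-pachytene array those of pre-mid-pachytene cells and spermatids no longer passed (adjusted p = 0.0695 and 0.0512). Liver was also below pre-mid-pachytene cells, with a difference of -0.33 (SE 0.128, adjusted p = 0.0240, where 46.7% of tested genes were lower), but this difference turned to 0.06 under quantile normalization and to 0.05 when arrays were centred on the autosomal median, a step that moved the median of all genes by 0.38. It also missed the threshold without the second euploid pre-mid-pachytene array (adjusted p = 0.110) and when only the compared cell types were fitted (adjusted p = 0.0567). Liver minus spermatids was -0.27 (SE 0.128, adjusted p = 0.0545). Spermatids and pre-mid-pachytene cells were not separated (-0.06, SE 0.137, adjusted p = 0.706).

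Peg3, a zinc finger protein expressed from the paternal copy, was highest in pre-mid-pachytene cells. Euploid liver had 3.24, 4.29 and 3.36. In pre-mid-pachytene cells the trisomic arrays had 5.17, 5.14 and 4.72 and the euploid arrays 5.26, 4.11 and 5.65. All mid-late-pachytene and spermatid arrays of both genotypes lay in the background range, between 2.35 and 2.60. Peg3 reached the minimum mean for testing only through the pre-mid-pachytene arrays where it was high, so its differences between cell types are given as a description. Euploid pre-mid-pachytene arrays all lay above the euploid mid-late-pachytene ones, by 2.41 on average (SE 0.367), where the mid-late-pachytene level is only known to be in the background range. Liver minus pre-mid-pachytene cells was -1.38 in euploids (SE 0.330), with overlapping arrays, and -0.66 in trisomics. Markers of Sertoli cells, a somatic type of the tubule (11 of 12 on the array), had a median of 4.30 to 4.66 on trisomic and 4.71 to 5.12 on euploid pre-mid-pachytene arrays and at most 3.84 in the later stages. Their summed level ran from 66.5 to 69.8 on trisomic and from 66.0 to 69.0 on euploid pre-mid-pachytene arrays and was at most 51.3 in the later stages. Spermatogonia markers (8 of 9) were also highest there, with a summed level of 52.7 to 54.9 on trisomic and 53.6 to 58.2 on euploid arrays and at most 35.7 later. Their part in the Peg3 level was not tested.

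Meg3 was above the background range in liver only. The liver arrays had 3.995, 4.66 and 4.18 in trisomics and 4.67, 3.70 and 3.54 in euploids, and every germ cell array lay between 2.29 and 2.67. The euploid mean over liver and any germ cell type stayed under the minimum of 4 set for testing, so these differences were not tested with the filter. Without the filter, euploid liver was above euploid spermatids by 1.34 (SE 0.218, adjusted p = 3.8e-05, limma), where 71.2% of all named genes passed. This SE comes from 1 spread shared by all groups, while the SD was 0.61 in euploid liver and 0.017 in euploid spermatids. The p-value therefore understates the spread in liver, and the spermatid level is only known to be in the background range. Mirg, another non-coding RNA of the Dlk1 and Meg3 cluster on chromosome 12, was distributed differently. It averaged 3.19 in both liver groups, 2.97 in trisomic and 3.40 in euploid pre-mid-pachytene cells, 8.61 ± 0.13 in trisomic and 8.96 ± 0.31 in euploid mid-late-pachytene cells (SD, n = 2 each), and 7.84 ± 0.29 in trisomic and 8.48 ± 0.29 in euploid spermatids (SD, n = 3 each). In euploids Mirg was lower in liver than in mid-late-pachytene cells, with a difference of -5.77 (SE 0.249). It reached the minimum mean for testing only through the mid-late-pachytene arrays where it was high, so this difference is given as a description.

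In the comparison of genotypes no member passed the test in any cell type. In liver, 9.55% of 8180 tested genes passed in either direction, against 0 of the 3 members tested there. In pre-mid-pachytene cells 10.3% of 8384 genes passed, against 0 of 3 members. The shares were 0.965% of 8085 genes in mid-late-pachytene cells and 0.821% of 8283 genes in spermatids, against 0 of 2 members in each. At an unadjusted p under 0.05 the members still numbered 0 in all 4 cell types, where 22.2%, 25.8%, 7.66% and 8.69% of the tested genes passed. The other members had a mean under 4 in the cell type and were not tested.

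**Figure D3:**
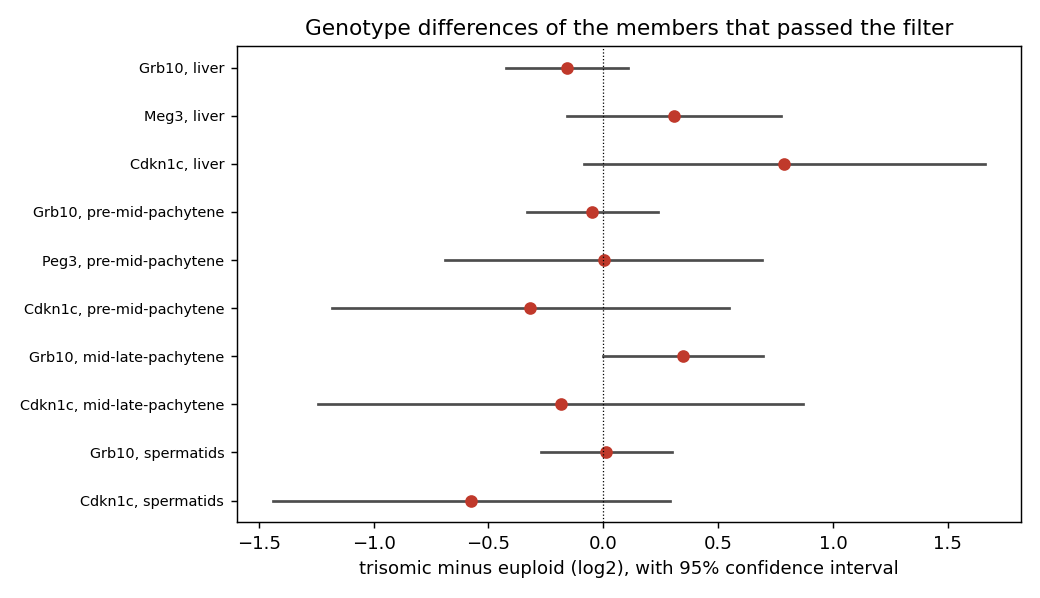
Points are the differences between trisomic and euploid arrays (log2, trisomic minus euploid) of the members that passed the filter in each cell type, and lines are 95% confidence intervals from limma. Every interval includes 0; the interval of Grb10 in mid-late-pachytene cells only just does.

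Cdkn1c in liver had 5.70, 7.18 and 4.88 on the trisomic arrays, against 4.85, 5.48 and 5.07 on the euploid arrays. The second trisomic array was the highest of the 6 and the third was lower than 2 of the euploid arrays. The difference was 0.79 (SE 0.415, 95% confidence interval -0.09 to 1.66, adjusted p = 0.290, limma). Leaving out single liver arrays in turn gave 0.158 to 1.31, with an adjusted p of up to 0.883. The difference was 1.31 without the third trisomic array (adjusted p = 0.0394). That array also had the highest level of 11 (of 12 listed) proliferation markers, with a median of 6.43, against 3.28 and 3.25 on the other trisomic arrays and 2.39 to 2.72 on the euploid arrays. Their summed level ran from 46.5 to 76.5 on trisomic and from 29.3 to 34.0 on euploid liver arrays. What this has to do with the level of Cdkn1c, a brake on the cell cycle, was not tested.

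In germ cells, Cdkn1c had 9.26, 9.80 and 9.83 on trisomic against 9.72, 9.97 and 10.15 on euploid pre-mid-pachytene arrays (-0.32, SE 0.411, 95% confidence interval -1.18 to 0.55, adjusted p = 0.681, limma). Trisomic mid-late-pachytene cells had 5.22 and 4.94, against 5.71 and 4.82 in euploids, and trisomic spermatids 9.76, 9.82 and 10.17, against 10.02, 10.44 and 11.02 in euploids. The groups overlapped in each germ cell type. The spermatid difference was -0.57 (SE 0.412, 95% confidence interval -1.44 to 0.29, adjusted p = 0.858), which leaves room for a decrease of more than 1 log2 unit. The genotype difference of liver minus that of spermatids was 1.36 (SE 0.576, adjusted p = 0.319), where 0.982% of tested genes passed. Against pre-mid-pachytene cells it was 1.10 (SE 0.576, adjusted p = 0.265), where 5.21% passed, and against mid-late-pachytene cells 0.97 (SE 0.643, adjusted p = 0.660), where 0.924% passed. For Grb10 the genotype difference of liver minus that of mid-late-pachytene cells was -0.50 (SE 0.212, adjusted p = 0.358). This difference and that of Cdkn1c against spermatids had an unadjusted p of 0.0281 and 0.0293, and no member passed after adjustment.

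Grb10 had 7.08 and 7.21 on trisomic mid-late-pachytene arrays, against 6.68 and 6.92 on euploid arrays. Both trisomic arrays lay above both euploid arrays, as did those of 17.7% of tested genes. The difference of 0.35 (SE 0.166, unadjusted p = 0.0503) did not pass (adjusted p = 0.652, limma). Elsewhere the genotype difference of Grb10 was -0.16 in liver (95% confidence interval -0.42 to 0.11), -0.05 in pre-mid-pachytene cells (-0.33 to 0.24) and 0.01 in spermatids (-0.27 to 0.30). As far as the spread between these arrays goes, which may be technical, these intervals exclude a 2-fold change in either direction.

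Peg3 in pre-mid-pachytene cells differed by 0.0023 (SE 0.328, 95% confidence interval -0.69 to 0.69, adjusted p = 0.998, limma). The arrays of both genotypes overlapped there, with the widest spread in euploids. Meg3 in liver differed by 0.31 (SE 0.220, 95% confidence interval -0.16 to 0.77, adjusted p = 0.475), with overlapping arrays. Leaving out single liver arrays in turn gave a Meg3 difference of 0.095 to 0.66, with 0.66 without the first euploid array, the highest of the 6. Over these fits the adjusted p ran from 0.0140 to 0.928 (limma), so whether Meg3 passed hung on single arrays. Meg3 averaged 4.28 on trisomic and 3.97 on euploid liver arrays. It thus reached the minimum mean of 4 only through the trisomic arrays, and these differences are given as a description.

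Mest and Igf2 were measurable on a few arrays only, and these fell in different tissues. Mest had 4.77, 2.15 and 3.74 on trisomic liver arrays, against 2.15, 2.11 and 2.13 on euploid liver arrays, so the first and the third trisomic arrays stood above the background range and the second did not. Tested without the filter, a choice made after these values were seen, the difference was 1.42 (SE 0.415, adjusted p = 0.0640, limma), where 5.22% of all named genes passed. It was 2.12 without the second trisomic array (adjusted p = 6.5e-05). Over all single liver arrays left out in turn it ran from 0.81 to 2.12, with an adjusted p of up to 0.214. It did not pass in a fit of the liver arrays alone (adjusted p = 0.562). Peg3 in liver had 3.78, 4.71 and 4.57 on trisomic arrays, against 3.24, 4.29 and 3.36 on euploid arrays, a difference of 0.72 with overlapping groups (SE 0.341, adjusted p = 0.338 without the filter). Markers of fetal liver and liver progenitors (5 of 6 listed on the array) had a median of 5.13 to 6.03 on trisomic and 2.76 to 3.17 on euploid liver arrays, a summed level of 27.3 to 32.0 on trisomic and 16.4 to 17.1 on euploid arrays. Stellate cell and fibroblast markers (12 of 12) had a median of 7.83 to 7.92 on trisomic and 6.77 to 7.16 on euploid arrays, a summed level of 97.0 to 99.7 on trisomic and 91.5 to 94.1 on euploid arrays. Their part in the Mest and Peg3 levels was not tested.

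Igf2, the fetal growth factor, stayed between 2.33 and 2.46 on all liver arrays of both genotypes. Its neighbour H19, a non-coding RNA expressed from the maternal copy and itself 1 of the fetal liver markers above, had 8.04, 9.85 and 11.99 on trisomic liver arrays, against 2.11, 2.25 and 2.13 on euploid liver arrays, which were all in the background range. In pre-mid-pachytene cells Igf2 had 2.89, 2.64 and 2.50 on trisomic arrays, against 3.55, 2.50 and 3.46 on euploid arrays. The first and the third euploid arrays were thus the only ones of the series above the background range. H19 on the same arrays had 3.45, 4.85 and 3.44 in trisomics, against 6.74, 2.73 and 5.61 in euploids, so its 2 highest values in these cells were on the 2 arrays with the highest Igf2. Tested without the filter, again a choice made after the values were seen, the Igf2 difference was -0.49 (SE 0.186, adjusted p = 0.165, limma), where 4.83% of all named genes passed. It was -0.83 without the second euploid array, the lowest of the euploid ones (adjusted p = 6.2e-05). The spread in that fit is shared with the other cell types, where Igf2 was in the background range on every array. That p-value thus does not measure the spread in pre-mid-pachytene cells. Over all single arrays left out in turn it ran from -0.83 to -0.31, with an adjusted p of up to 0.559. Afp, a fetal liver protein, had 4.86, 5.18 and 3.85 on trisomic and 6.40, 4.39 and 5.52 on euploid pre-mid-pachytene arrays, and was again highest on the first and the third euploid arrays. Cyp17a1, a steroid-synthesis enzyme of Leydig cells, had 3.66, 2.70 and 2.69 on trisomic and 6.97, 4.62 and 3.65 on euploid arrays. The whole list of Leydig cell markers (4 of 7 on the array) had a median of 2.55 to 2.63 on trisomic and 2.60 to 2.63 on euploid arrays, with a summed level of 9.9999 to 11.06 on trisomic and 11.05 to 14.52 on euploid arrays. The part of these markers in the Igf2 level was not tested.

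**Figure D4:**
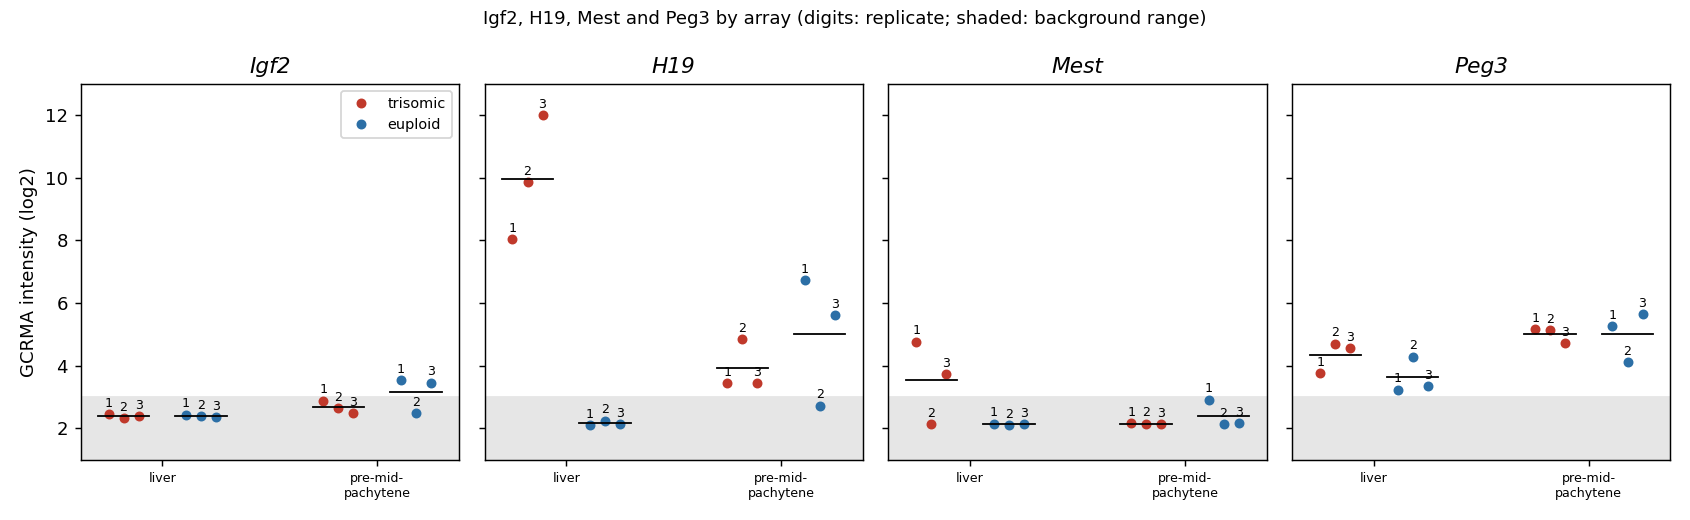
Points are arrays of liver and pre-mid-pachytene spermatocytes, numbered by replicate, trisomic in red at the left and euploid in blue at the right of each pair, with the GCRMA intensity (log2) on the vertical axis, group means as bars and the background range shaded. H19 is above the shaded area on all 3 trisomic liver arrays while Igf2 is not, Mest is above it on the first and the third of them, and Igf2 lies above it only on the first and the third euploid pre-mid-pachytene arrays.

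The 4 members that stayed in the background range differed little between arrays. Dlk1 ran from 1.98 to 2.10, Plagl1 from 2.00 to 2.18, Zim1 from 2.03 to 2.23 and Peg10 from 2.20 to 2.44. Sgce, the imprinted neighbour of Peg10 that encodes epsilon-sarcoglycan, was well above that range. It had 11.59, 11.55 and 11.39 on trisomic pre-mid-pachytene arrays, against 10.78, 11.52 and 10.17 on euploid arrays, and 8.45, 8.42 and 8.40 on trisomic liver arrays, against 8.10, 7.69 and 8.04 on euploid arrays. The trisomic liver arrays all lay above the euploid ones, as did those of 11.8% of tested genes, and neither difference passed (0.48, SE 0.267, adjusted p = 0.324 in liver and 0.69, SE 0.268, adjusted p = 0.109 in pre-mid-pachytene cells, limma). Asb4, another neighbour of Peg10, averaged 12.91 in trisomic and 12.89 in euploid mid-late-pachytene cells, and 2.59 in trisomic and 2.67 in euploid liver. Copg2, which lies beside Mest, averaged 10.43 in trisomic and 10.49 in euploid liver, on arrays where Mest was in the background range on 4 of 6. Neighbours were taken as imprinted genes of the list within 1 Mb on GRCm38.p6.

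Other imprinted genes and the pathways these members act in were read as lists. Of 61 other imprinted genes, 47 were on the array. In liver 23 of them were tested, of which 3 rose in trisomics and none fell, with a median change of -0.05, against -0.01 over all tested genes. Over all tested genes in liver, 5.77% rose and 3.78% fell. H19 was 1 of the 3 and was tested only because its trisomic level brought its mean over the minimum, and the others were Igf2r and Ndn. Igf2r, the receptor that clears the Igf2 protein and lies on chromosome 17, had 9.33, 9.70 and 9.95 on trisomic and 8.37, 8.33 and 8.85 on euploid arrays (1.14, SE 0.203, adjusted p = 0.00132, limma). Ndn, the growth suppressor necdin, had 7.04, 7.002 and 7.04 on trisomic and 6.45, 6.24 and 5.44 on euploid arrays (0.98, SE 0.249, adjusted p = 0.0171). In both genes all trisomic arrays lay above all euploid ones, as in 11.8% of tested genes. None of the 24, 19 and 21 other imprinted genes tested in pre-mid-pachytene cells, mid-late-pachytene cells and spermatids passed.

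Of 10 tested genes of the IGF axis in liver, 2 rose and 1 fell, with a median change of 0.00028, where 5.77% of all tested genes rose and 3.78% fell. Irs2, an adaptor of the insulin and IGF receptors, fell to 5.89, 5.58 and 6.17 on trisomic arrays, against 7.18, 7.76 and 7.44 on euploid arrays (-1.58, SE 0.147, adjusted p = 3.9e-06, limma). Htra1, a secreted protease that cleaves IGF-binding proteins, had 7.28, 7.26 and 6.53 on trisomic and 5.34, 5.74 and 4.94 on euploid arrays (1.69, SE 0.207, adjusted p = 4.2e-05). Igfbp3, a carrier of IGFs in blood, rose by 0.52 (SE 0.132, adjusted p = 0.0184). The trisomic arrays lay all below the euploid ones for Irs2, as in 11.3% of tested genes, and all above them for Htra1, as in 11.8%. In the Notch pathway, whose ligands Dlk1 resembles, 2 of 5 tested genes rose in liver, while the median change of the 5 was -0.18, against -0.01 over all tested genes. The 2 were Dll1 on chromosome 17, by 2.09 (SE 0.334, adjusted p = 5.7e-04, limma), and Hes1, by 1.24 (SE 0.203, adjusted p = 7.1e-04). None of the 3 CDK inhibitors or the 7 regulators of imprints tested in liver passed.

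In pre-mid-pachytene cells, where 4.46% of all tested genes fell, 1 of 4 tested CDK inhibitors fell, Cdkn3, a phosphatase that acts on cyclin-dependent kinases, with 9.39, 9.35 and 9.74 on trisomic and 10.09, 10.45 and 10.20 on euploid arrays (-0.75, SE 0.137, adjusted p = 0.00388, limma). Of 9 tested regulators of imprints 1 fell, Dnmt3a, the methyltransferase that sets imprints in germ cells, with 4.61, 4.66 and 4.82 on trisomic and 5.50, 5.47 and 5.40 on euploid arrays (-0.76, SE 0.213, adjusted p = 0.0319). Of 4 tested Notch genes Dll3 fell by 0.51 (SE 0.128, adjusted p = 0.0191), and none of 5 tested genes of the IGF axis passed. No gene of these lists passed in mid-late-pachytene cells or spermatids. When only the arrays of the compared cell type were fitted, 19 genes passed in all in liver and 4 in pre-mid-pachytene cells. H19 alone of the 11 named genes still passed, and the adjusted p of the others lay between 0.0637 and 0.279. Since H19 was tested only because its trisomic level brought its mean over the minimum, its pass does not set it apart from them. Single arrays or scalings also ended some calls: Ndn without the third euploid liver array (adjusted p = 0.0979), Igfbp3 when arrays were centred (adjusted p = 0.0567), and Dnmt3a under quantile normalization (adjusted p = 0.0633) and without any pre-mid-pachytene array other than the third trisomic one. Igfbp3 and Dll3 were each lost without 3 of the 6 arrays in turn.

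For the members with a mean of at least 4 in some group, the genes most alike over the 22 arrays were found by Pearson's r, as a description across arrays that share their cell types and normalization. Cdkn1c was most like Med21 (r = 0.979), a subunit of the Mediator complex, and Itsn2 (r = 0.9748), an endocytic scaffold protein. Med21 averaged 6.83 in euploid liver, 9.97 in euploid pre-mid-pachytene cells, 6.67 in euploid mid-late-pachytene cells and 10.09 in euploid spermatids. Grb10 was most like Ccdc127 (r = 0.927) and Ankle2 (r = 0.924), both highest in mid-late-pachytene cells. Peg3 was most like Ccdc84 (r = 0.951) and Frmd6 (r = 0.950). Frmd6 averaged 8.16 in trisomic and 7.98 in euploid pre-mid-pachytene cells and was at 2.08 or lower in the mid-late-pachytene and spermatid groups. Meg3 was most like Gadd45gip1 (r = 0.982) and Ptger2 (r = 0.981), and Ptger2 averaged 3.93 in trisomic and 3.90 in euploid liver and at most 2.52 in any germ cell group.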

How the data were processed

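The authors deposited log2 intensities, 1 per probe set and array, made with GCRMA, per the submitters' processing notes. The version and which arrays were normalized together are not given in the sources used here. Biotinylated RNA was made from 20 to 30 ng of total RNA, per the labels' protocols. GCRMA subtracts an estimated background, so low levels are compressed. Of 16539 probe sets, 15780 carried 1 gene symbol and 759 none, and the unnamed ones were left out.

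Differences were tested with limma 3.58.1 (R 4.3.3, statmod 1.5.0): 8 group means over 22 arrays, two-sided, with Benjamini-Hochberg adjustment over all genes whose mean in the compared arrays reached 4, threshold 0.05. The design had 4 genotype comparisons, 6 of euploid cell types and 3 tests of whether genotype differences differed between tissues. The number of arrays limits the precision. In simulated data the genotype fit recovered 72%, 52%, 47% and 56% of changes of 1 log2 unit in liver, pre-mid-pachytene cells, mid-late-pachytene cells and spermatids. The simulated noise gave each gene 1 spread in all groups, as the fit itself assumes. Real spreads can differ between groups, as for H19 with an SD of 1.98 in trisomic liver and 0.045 in trisomic spermatids. These shares do not cover such genes.

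Members and lists were chosen with earlier results of these data known. All members are named. From the other lists, up to 4 genes per list and genotype comparison are named that passed the threshold without overlap between genotypes, and for each member with a group mean of at least 4 the 2 genes most alike by r. Afp, Cyp17a1 and the neighbours Mirg, Sgce, Asb4 and Copg2 were chosen after their values were seen. Alternatives were no filter or a minimum of 6, quantile normalization, centring on the autosomal median, the compared arrays only, trisomic arrays for cell types, a replicate block and leaving out single arrays.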

Additional observations from a re-analysis of the deposited data

How the results depend on the processing

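Over the alternatives run, 529 recomputed values of single genes kept their direction and side of the threshold, 29 lost the threshold, 6 passed it newly and 19 changed sign. The number of members past the threshold in the liver genotype comparison was 0 to 1 when single arrays were left out. Spermatids against mid-late-pachytene cells gave 1 to 2. With no filter on low values the number called was 5 for liver against pre-mid-pachytene cells (3 with it), 7 for liver against mid-late-pachytene cells (1 with it), 7 for liver against spermatids (1 with it), 5 for pre-mid-pachytene against mid-late-pachytene cells (3 with it) and 2 for spermatids against pre-mid-pachytene cells (0 with it), where all 10 members are tested. Each count of 7 includes some of Dlk1, Plagl1, Peg10 and Zim1, which were in the background range on every array. Dlk1, for example, averaged 2.00 in euploid liver and 2.09 in euploid mid-late-pachytene cells. Such calls are differences within the background range and are not read as differences between tissues. Over all named genes 58.8%, 72.3%, 71.2%, 50.8% and 53.3% passed in these comparisons without the filter. In liver against spermatids Grb10, tested both ways, passed only without it (adjusted p = 0.0264, against 0.0545 with it). With trisomic arrays in place of euploid ones, liver against spermatids gave 2, since Grb10 passed (-0.44, adjusted p = 0.00365). Same-numbered arrays of the genotypes correlated in their deviations from group means at -0.131 to 0.360. With so few arrays per group, these values cannot settle whether same-numbered arrays were paired. The replicate block changed no count of members called; the Cdkn1c difference in liver had an adjusted p of 0.126 with it. Signs turned only for differences past no threshold, apart from Grb10 in liver minus pre-mid-pachytene cells (0.0649 under quantile normalization, 0.0521 centred). Spermatids minus pre-mid-pachytene cells turned for Grb10 under the same settings (0.0908 and 0.0926), with trisomic arrays (0.0030) and without single arrays (-0.102 to 0.0263), and for Cdkn1c under quantile normalization (-0.0230). Cdkn1c in liver minus mid-late-pachytene cells was 0.84 in trisomic arrays and -0.58 to 0.31 without single arrays, with 0.0093 without the first euploid liver array and 0.314 without the first euploid mid-late-pachytene array. The Grb10 genotype difference in pre-mid-pachytene cells was 0.0355 centred and -0.0929 to 0.0357 without single arrays. Peg3 there was -0.448 to 0.324, with -0.0782 and -0.0619 without the first and the second trisomic array. Without single arrays, Cdkn1c in mid-late-pachytene cells was -0.632 to 0.262, Grb10 in spermatids -0.0065 to 0.0323 (-0.0023 without the first euploid array), and the Grb10 genotype difference of liver minus that of pre-mid-pachytene cells -0.196 to 0.0389. The causes were not tested. Calls of Ndn (adjusted p = 0.0979 without the third euploid liver array), Igfbp3, Dll3 and Dnmt3a were also lost without single arrays, where the adjusted p reached 0.0760, 0.0613 and 0.116 for the last 3. Which of the levels near 3 are true signal cannot be settled from 1 probe set per gene.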
